A study of Mus musculus with 94 samples.

Results

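Transcripts of 8 genes for proteins that the liver secretes into blood plasma were followed on 94 mouse brain arrays: Alb, Serpina1c, Apoa1, Apoa2, Fga, Fgb, Fgg and Ahsg. A probe set was taken where the platform annotation names 1 of these genes and no other gene, which gave 11 of the 45101 probe sets, with 4 for Apoa1 and 1 for each of the others. Values below are for the probe set of each gene with the highest mean over the 94 arrays. The genes were chosen by measured values: Alb and Serpina1c by their MAM minus vehicle difference in Mgmt-/- mice at 6 hr (Serpina1c also at 24 hr), and all 8 because they are very high on 1 array. Those values are therefore given as a description, without a test.

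Male C57BL6 wild-type (wt) mice and Mgmt-/- mice on that background, 11 weeks old, received a single intraperitoneal dose of vehicle (dilute acetic acid in saline) or of methylazoxymethanol (MAM) acetate, a DNA-methylating agent from cycads. Mgmt encodes a repair protein that removes methyl groups from guanine in DNA. Half-brains were taken at 6, 24, 48 or 168 hr, and each of the 94 Affymetrix mouse genome arrays is labelled with 1 animal. Arrays are named by their labels, as in WT.VEH.168.123, which give genotype (MGMT for Mgmt-/-), agent, hours and animal number. The 16 groups of genotype, agent and time held 6 animals, except that the wt groups given vehicle (48 hr) and MAM (168 hr) held 5 each. The Mgmt-/- mice lack the gene in all cells, and the vehicle-treated Mgmt-/- mice carry the same deletion as those given MAM. The study was run in 2 laboratories, and the animal numbers fall into 2 sets (set 1 with the lower and set 2 with the higher numbers). The labels do not tie a number to a laboratory, so the sets are called number sets.

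Hepatocytes make most plasma proteins. Alb encodes serum albumin, the main carrier protein of plasma, and Serpina1c is one of the mouse alpha-1-antitrypsin genes, whose products inhibit proteases. Apoa1 and Apoa2 encode apolipoproteins of high-density lipoprotein, Fga, Fgb and Fgg the chains of fibrinogen, the clot protein, and Ahsg fetuin-A, which limits mineral deposition. Transcription of many of these genes in hepatocytes depends on HNF1 factors, and in adult brain their transcripts are low.

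The stretch just before the gene start is shown for the 4 genes that hold the core GTTAAT of the HNF1 site (either strand, in capitals), since the 2 members with the widest range on the brain arrays, Alb and Serpina1c, are among them. Promoter entries were found for all 8 genes in RefSeq (GRCm38.p6). Each stretch is the 100 bases before the start, on the strand of the gene.
Alb (chr5:90460770-90460869, plus strand): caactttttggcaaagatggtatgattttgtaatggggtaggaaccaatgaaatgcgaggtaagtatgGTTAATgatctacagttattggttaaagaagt
Serpina1c (chr12:103904951-103905050, minus strand): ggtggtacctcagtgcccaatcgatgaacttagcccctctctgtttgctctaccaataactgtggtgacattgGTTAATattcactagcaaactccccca
Fga (chr3:83026053-83026152, plus strand): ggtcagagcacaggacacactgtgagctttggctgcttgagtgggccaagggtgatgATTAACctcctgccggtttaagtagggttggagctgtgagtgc
Fgb (chr3:83049864-83049963, minus strand): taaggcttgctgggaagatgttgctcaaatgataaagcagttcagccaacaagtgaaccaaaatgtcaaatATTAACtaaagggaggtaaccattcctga

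GTTAAT or its reverse complement ATTAAC was present in the 250 bases before the start in these 4 of 8 genes and in 6.4% of all 32851 promoter entries. CCAAT, searched on both strands, was present in Alb, Serpina1c and Apoa2 and in 33.8% of all entries, and TATAAA in Apoa2 and in 12.4%. CAAAGTCC, a form of the HNF4 site, was in none of the 8 genes and in 1.2% of all entries. A match of letters describes these windows and does not show that a factor binds there.

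On the array labelled MGMT.MAM.168.343, the labelled tissue went against its markers. All 13 neuronal, all 7 astrocyte and all 5 oligodendrocyte markers were lower there than on each of the other 93 arrays. Snap25, a synaptic vesicle fusion protein, read 4.50 there (all levels are log2 units of the robust multi-array average, RMA) and 12.89 to 13.36 on the others, and the myelin gene Mbp read 4.97 against 13.29 to 13.83. All 39 other liver-secreted genes and 42 of 44 liver cell genes were higher there than on each of the other arrays. This array served as the liver reference and was left out of every group value and fit unless stated, which leaves 5 Mgmt-/- MAM arrays at 168 hr.

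On the reference array the 8 members lay close together, from 13.52 (Fgg) to 14.32 (Apoa1), near the highest value of the whole table (14.53, another Apoa1 probe set). On the other 93 arrays they were spread very differently. Alb ranged from 4.98 to 10.66 (median 6.49) and Serpina1c from 3.74 to 9.03 (median 5.08). The other 6 members had narrower ranges and lower peaks: 5.24 to 7.44 for Apoa1, 5.33 to 7.65 for Apoa2, 3.44 to 6.19 for Fga, 3.78 to 6.70 for Fgb, 3.64 to 7.01 for Fgg and 4.48 to 6.24 for Ahsg. The SD of Alb over the 93 arrays (1.25) exceeded that of 99.98% of all probe sets, and that of Ahsg (0.36) exceeded 94.0%. Most of that spread lay within groups: about the mean of its group and number set, the SD was 1.08 for Alb, 1.01 for Serpina1c and 0.32 to 0.51 for the rest.

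**Figure D1:**
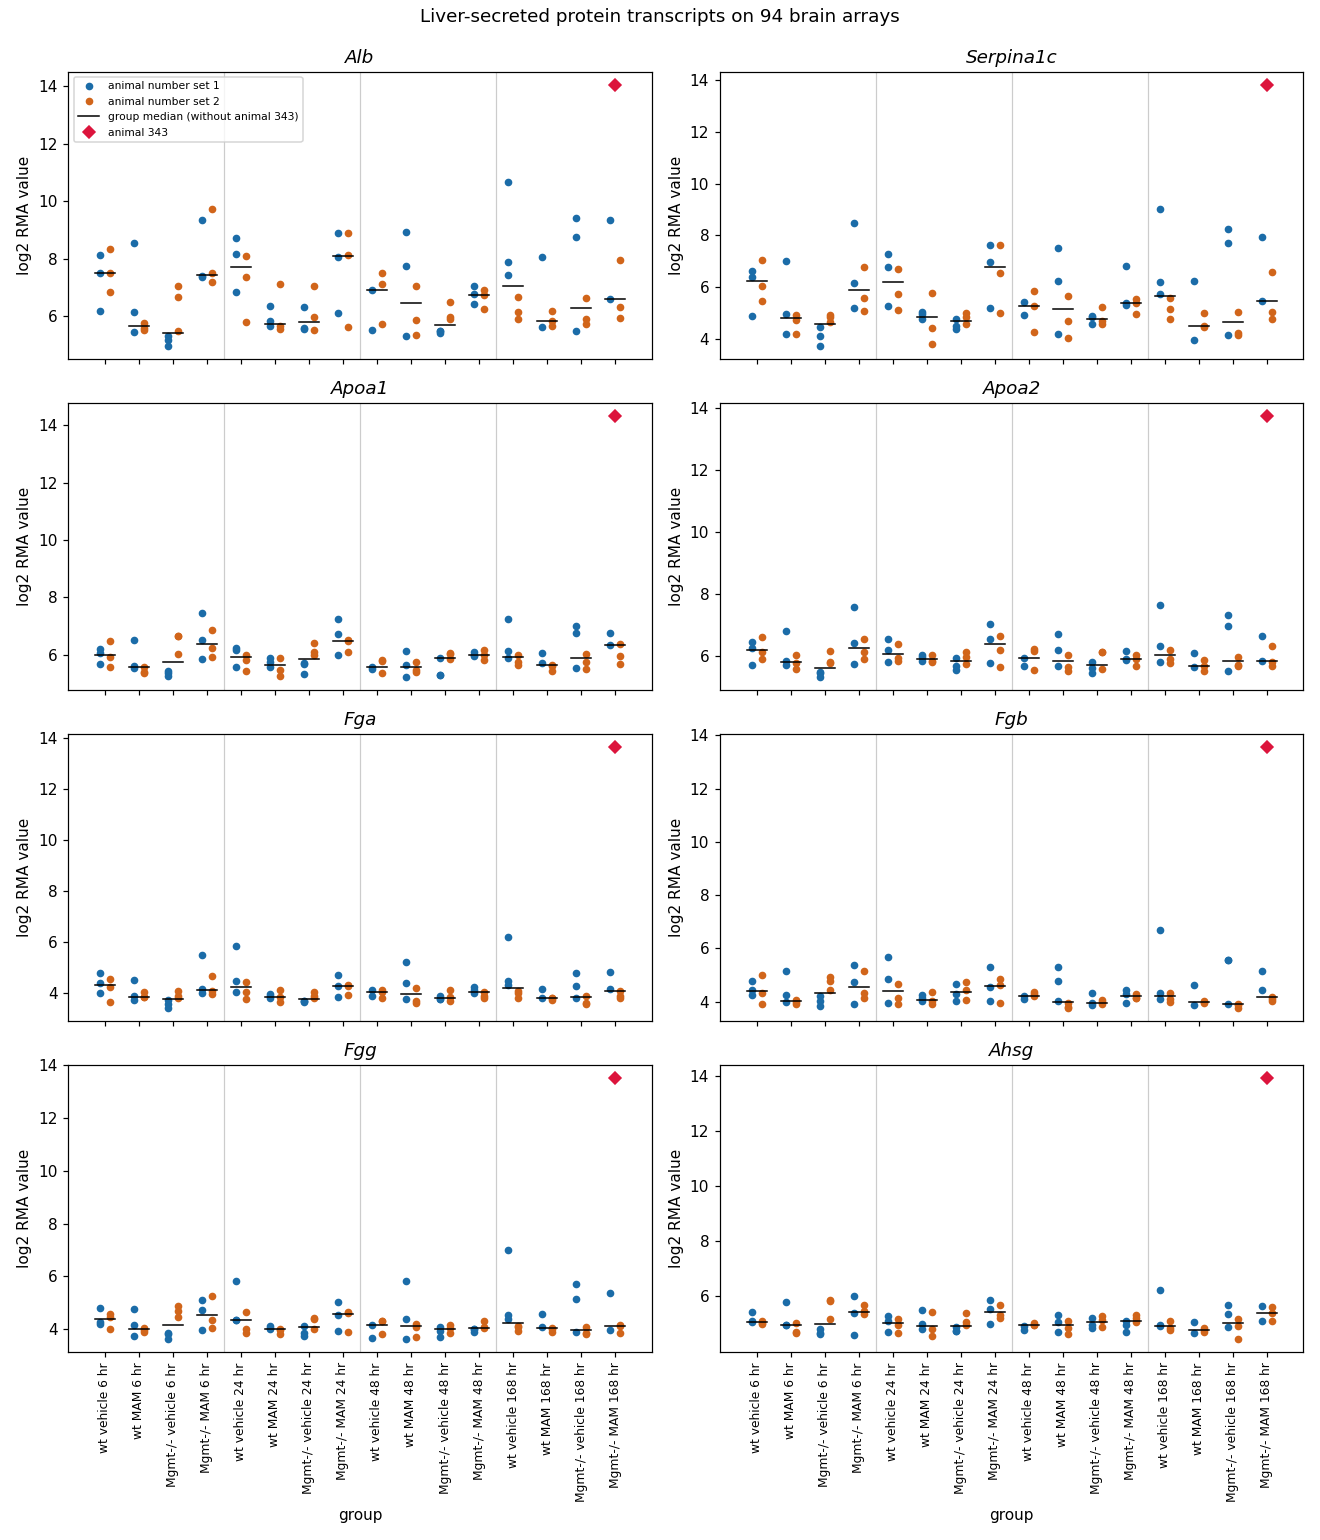
Log2 RMA value (y axis) of each member on each array, by group (x axis); dots are arrays, coloured by number set, black bars are group medians and the diamond is MGMT.MAM.168.343. Single arrays of set 1 stand far above their groups, such as the wt vehicle array at 168 hr with Alb at 10.66, and every member is far higher on the array of MGMT.MAM.168.343.

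The 16 group means of Alb, once sorted, fell in small steps, as sorting many means makes likely. The highest and lowest groups did not overlap (lowest array 7.18 against highest array 7.06), and their comparison is the one that chose Alb. The group means ran from 8.09 ± 1.13 (SD, n = 6) in Mgmt-/- MAM at 6 hr down to 5.78 ± 0.86 (SD, n = 6) in Mgmt-/- vehicle at 6 hr, and neighbours in that order differed by 0.02 to 0.47, less than the SD of either group. Below the top came Mgmt-/- MAM at 24 hr (7.61 ± 1.41), wt vehicle at 24 hr (7.49 ± 1.07), wt vehicle at 168 hr (7.44 ± 1.75) and wt vehicle at 6 hr (7.41 ± 0.81). The 3 lowest groups were all Mgmt-/- vehicle, at 24 hr (6.00 ± 0.60), 48 hr (5.79 ± 0.42) and 6 hr. Mgmt-/- vehicle at 6 hr was also the lowest group for Serpina1c (4.46), Apoa2 (5.67) and Fga (3.76), whereas the lowest was Mgmt-/- vehicle at 48 hr for Fgb (4.02) and Fgg (3.96), wt MAM at 48 hr for Apoa1 (5.60) and wt MAM at 168 hr for Ahsg (4.82). No test of these orders was made, since the Mgmt-/- groups at 6 and 24 hr chose the genes.

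The arrays with the highest members came from several groups. By the median of the 8 members, each centred on its mean over 93 arrays, the first 5 were WT.VEH.168.123 (wt vehicle, 168 hr, 2.23 log2 units above the mean), MGMT.MAM.6.329 (Mgmt-/- MAM, 6 hr, 1.46), WT.VEH.24.107 (wt vehicle, 24 hr, 1.45), MGMT.VEH.168.321 (Mgmt-/- vehicle, 168 hr, 1.27) and WT.MAM.48.139 (wt MAM, 48 hr, 1.04). All 5 were in number set 1. On WT.VEH.168.123, which received no MAM, 7 of the 8 members had their highest value of the 93 arrays, and Apoa1 was highest on MGMT.MAM.6.329.

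To ask whether the members stood in the same ratio as on the liver reference, each value was put on a linear scale and expressed as a share of the reference value, after subtracting the 10th percentile of the 93 arrays from both. A single source with the make-up of the reference would give 1 share for all genes on an array. On WT.VEH.168.123 the shares were 9.29% for Alb and 3.50% for Serpina1c. They were 1.12% for Apoa2, 0.974% for Fgg, 0.730% for Fgb, 0.536% for Apoa1, 0.461% for Fga and 0.322% for Ahsg. The highest share was 28.9 times the lowest on this scale. The reference values lie near the top of the RMA scale and Fga, Fgb and Fgg near its floor on most arrays, and whether the scale is linear there was not tested, so the size of that ratio is uncertain. These shares have no replicate error, as each array is 1 animal.

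On other arrays with a high Alb share, Alb and Serpina1c again had the highest shares of the 8 members. The order of the lower ones varied. On MGMT.MAM.6.329 the shares of Alb and Serpina1c were 3.54% and 2.38%, with 0.642% for Apoa1 and 0.171% for Fgg. On MGMT.VEH.168.321 they were 3.76% and 1.96%, with 0.427% for Apoa1 and 0.0513% for Fga. Over the 20 arrays with an Alb share above 1%, of which 14 were in number set 1, the share of Alb was the highest of the 8 on all 20, Serpina1c came second on all 20 and Apoa2 was the third on 17. The median ratio of the Alb to the Serpina1c share was 2.27 (quartiles 2.04 and 2.53), and that of Alb to Apoa1 was 9.25 (quartiles 6.75 and 11.53). The latter moved to 14.05 with the median of the 93 arrays as base, to 14.16 with the Apoa1 probe set that is highest on the reference, and to 0.51 with WT.VEH.168.123 as the reference. MGMT.MAM.6.949 (Mgmt-/- MAM, 6 hr) stood apart from the rest, with 4.72% for Alb and 0.642% for Serpina1c, a ratio of 7.35. The arrays were picked by Alb, so a high Alb share is no result about them.

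**Figure D2:**
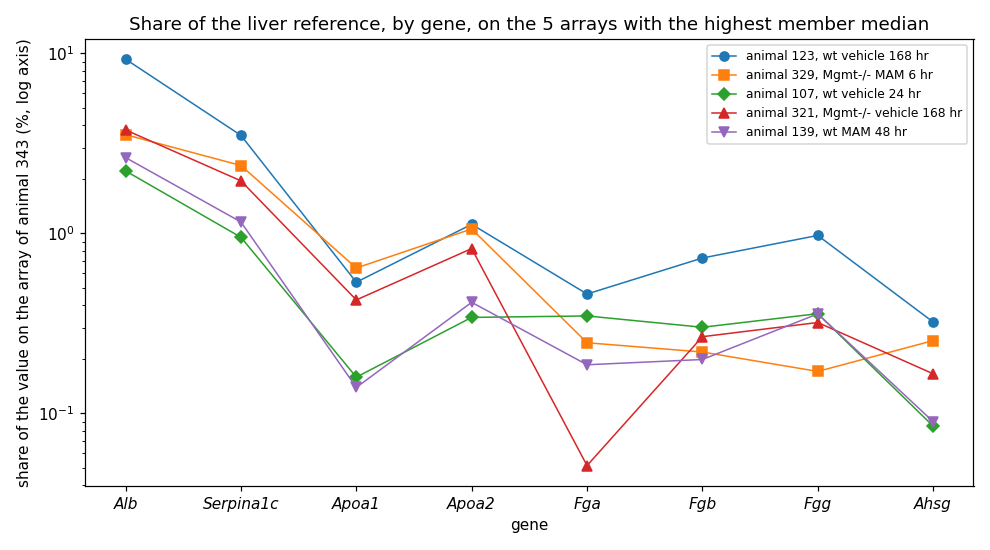
Share of the value on the liver reference array (y axis, percent, log axis) for each member (x axis) on the 5 arrays with the highest member median, 1 line an array. The lines are far from flat: on WT.VEH.168.123 the share falls from 9.29% for Alb to 0.322% for Ahsg.

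The shares were more even when a brain array was the reference. With WT.VEH.168.123 in place of MGMT.MAM.168.343 as the reference, an alternative chosen after seeing the data, the highest share was a median 4.76 times the lowest over the other 19 of these arrays, against 27.9 times with MGMT.MAM.168.343, and it was smaller on all 19. On WT.MAM.48.139, the most even of the 19, the shares of WT.VEH.168.123 ran from 26.0% (Apoa1) to 40.5% (Fga). On MGMT.MAM.168.971, the least even, they ran from 1.58% (Fgb) to 45.6% (Ahsg), and the highest was 28.9 times the lowest.

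Across the 93 arrays the members rose and fell together. The 28 pairwise Spearman correlations were 0.63 to 0.92 (median 0.73), and the highest was that of Alb with Serpina1c. They were 0.60 to 0.92 without the 2 arrays farthest from the median of Alb, and 0.64 to 0.94 for deviations from the mean of group and number set. Within number set 1 (45 arrays) they were 0.71 to 0.95, and within set 2 (48 arrays) 0.47 to 0.88. The points share their normalization, and no test was made.

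The 10 other genes whose values followed the member median most closely over the 93 arrays were all genes of liver. They were Serpina1b (Spearman 0.91), Fabp1 (0.88), Mup3 (0.86), Pzp and Hp (0.79 each), Ambp (0.78), Apoh, Bhmt and Itih4 (0.77 each) and Apoc3 (0.75). Most encode further secreted plasma proteins, but Fabp1, a fatty acid binding protein, and Bhmt, an enzyme of methionine metabolism, act inside the hepatocyte. Probe sets of Serpina1b and Mup3 can pick up close relatives: an additional probe set names Serpina1e, Serpina1c and Serpina1b together and was left out by the rule, and it read 3.0 to 3.63 on the 93 arrays and 11.84 on the reference.

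Some other liver genes were likewise high on WT.VEH.168.123. Of 39 other liver-secreted genes, 17 had their highest value of the 93 arrays there, and of 44 liver cell genes 15. No marker of neurons (13), choroid plexus (8), red cells (5), endothelium (6) or meninges (6) did. The array was picked because the members are highest on it, and the share of all probe sets highest there is not given here. Cyp3a11, a drug-metabolising cytochrome, read 8.08 there and a median of 3.89 over the 93 arrays. Adh1, an alcohol dehydrogenase, read 6.92 (median 5.35), Bhmt 6.77 (median 4.41) and the haem carrier Hpx 7.66 (median 4.41). The 4 largest shares of the reference among the liver cell genes were 2.90% for Cyp3a11, 1.09% for Adh1, 1.02% for Asgr2 and 0.849% for Bhmt, and those among the other secreted genes were 3.23% for Vtn, 2.19% for Serpina6, 2.16% for Serpina1b and 1.47% for Hpx. Vtn, which encodes vitronectin, read 8.85 to 9.76 on the 93 arrays and did not follow the members (Spearman -0.20). Asgr2 and Serpina6 were higher on at least 1 other of the 93 arrays. On WT.VEH.168.123 they were near their medians: Serpina6 read 3.978 (median 3.925) and Asgr2 4.504 (median 4.314). Their reference values were low for liver genes, 7.22 and 9.15, which makes such shares large. The median share was 0.355% over the other secreted genes and 0.305% over the liver cell genes. Snap25 was 13.05 on this array, within its range on the others. The RNA index, the mean log2 difference between the 3' and 5' control probe sets of Gapdh and Actb, was 0.348 on this array and 0.316 on WT.VEH.24.107 and 0.321 on WT.MAM.48.139, the other wt arrays among the 5 with the highest members. It was 0.750 on MGMT.MAM.6.329, 0.792 on MGMT.VEH.168.321 and 0.913 on the reference, all labelled Mgmt-/-.

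**Figure D3:**
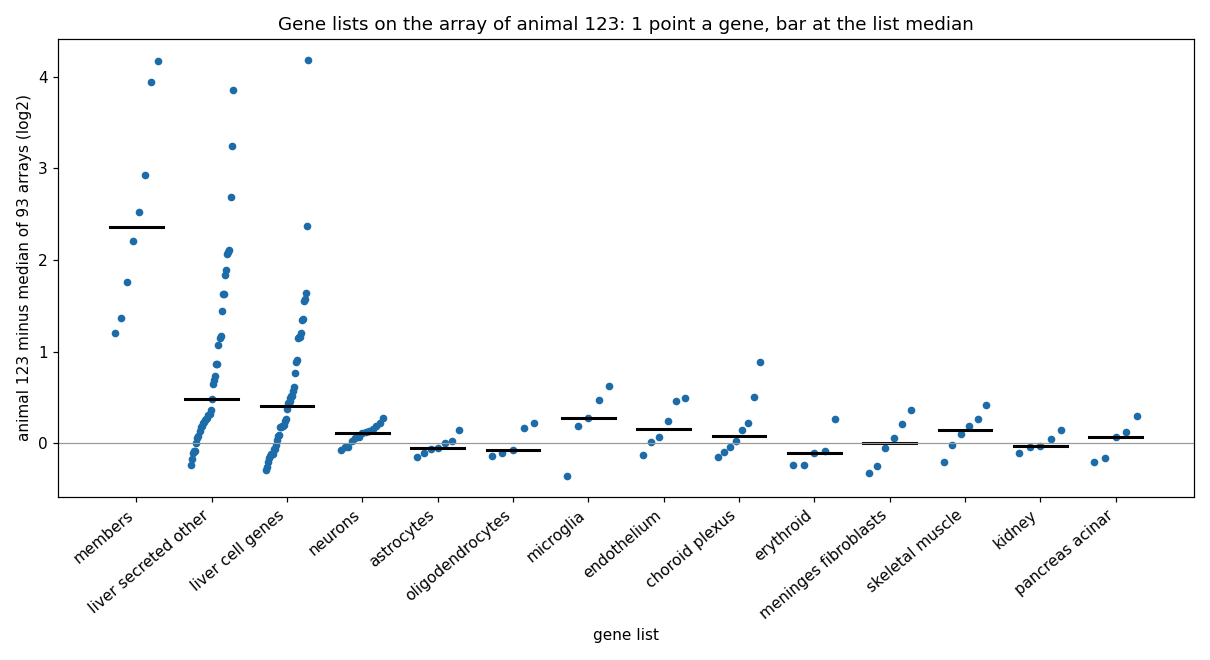
Difference between the array of WT.VEH.168.123 and the median of 93 arrays (y axis, log2) for the genes of each list (x axis), 1 point a gene with a bar at the list median. The members lie between 1.20 and 4.17, the medians of the liver lists are 0.48 and 0.41, and those of the other lists are -0.11 (red cells) to 0.28 (microglia).

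In Mgmt-/- mice, the comparison that chose Alb and Serpina1c, all 8 members were higher after MAM at 6 and 24 hr. Alb on the 6 arrays at 6 hr was 4.98, 5.41 and 7.06 (lowest, median, highest) with vehicle and 7.18, 7.45 and 9.73 with MAM. Serpina1c was 3.74, 4.56 and 4.93 against 5.08, 5.87 and 8.50. At 24 hr Alb was 5.52, 5.78 and 7.05 with vehicle and 5.61, 8.09 and 8.89 with MAM, so the groups overlapped. The differences were 2.31 ± 0.53 (estimate ± SE, log2) for Alb and 1.76 ± 0.50 for Serpina1c at 6 hr, and 1.61 ± 0.51 and 1.81 ± 0.42 at 24 hr. For the other 6 genes they were 0.24 (Fgb) to 0.72 (Apoa2) at 6 hr and 0.18 (Fgb) to 0.63 (Apoa1) at 24 hr. Over all probe sets tested, 1.83% passed the call rule (adjusted p below 0.05 and a fold change above 1.3) at 6 hr and 0.699% at 24 hr. At 6 hr the differences were larger in number set 1 than in set 2 for all 8 genes (Alb 2.88 and 1.73), and for Apoa1, Fgb, Fgg and Ahsg the value in set 2 was below 0 (-0.09 to -0.17). The mean RNA index was also higher after MAM in Mgmt-/- mice, by 0.198 at 6 hr and 0.146 at 24 hr. With the index as a covariate the value of Serpina1c at 24 hr was 0.96, against 1.81 without it. Covariate values of Alb, and of Serpina1c at 6 hr, are not given here. The part of the index in the result was not tested further. The other liver lists were also mostly higher: 32 of 39 secreted and 37 of 44 liver cell genes at 6 hr (medians 0.13 and 0.12, against 0.02 over all probe sets), and 36 of 39 and 39 of 44 at 24 hr (medians 0.17 and 0.11, against 0.02).

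At 48 and 168 hr no member was called in Mgmt-/- mice. At 48 hr, Alb was 5.43, 5.70 and 6.50 with vehicle and 6.25, 6.75 and 7.05 with MAM, a difference of 0.90 ± 0.45 (limma adjusted p = 0.59). At 168 hr, Alb was 5.50, 6.27 and 9.41 with vehicle, and the 5 MAM arrays were 5.95, 6.32, 6.59, 7.97 and 9.33, a difference of 0.41 ± 0.66 (limma adjusted p = 0.90). All 8 genes were higher at 48 hr (median difference 0.18) and 6 of 8 at 168 hr (0.20), as were 34 of 39 other secreted and 35 of 44 liver cell genes at 48 hr and 27 and 29 at 168 hr. By limma, 0 of 9 member probe sets that passed the laboratory filter were called at 48 hr and 0 of 11 at 168 hr, where 0.461% and 0.493% of all probe sets were. The ordinary linear model also called 0. An unadjusted p below 0.05 in limma was found for 0 member probe sets at either time, where 8.77% and 9.84% of all probe sets had one.

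In wt mice the differences ran the other way at 6, 24 and 168 hr, and no member was called at any time. Alb on the 6 arrays at 6 hr was 6.17, 7.50 and 8.35 (lowest, median, highest) with vehicle and 5.46, 5.67 and 8.54 with MAM. The MAM group at 6 hr holds 1 high array, WT.MAM.6.127, at 8.54. At 24 hr Alb was 5.78, 7.72 and 8.72 with vehicle and 5.54, 5.74 and 7.11 with MAM. The differences for Alb were -1.24 ± 0.53 at 6 hr (limma adjusted p = 0.87), -1.47 ± 0.51 at 24 hr (0.51), 0.15 ± 0.48 at 48 hr (0.91) and -1.01 ± 0.66 at 168 hr (1). For Serpina1c they were -1.08, -1.36, 0.19 and -1.10. All 8 members were lower at 6 hr (median -0.30) and at 168 hr (-0.46), 7 of 8 at 24 hr (-0.47), and all 8 were slightly higher at 48 hr (0.08), where the 2 number sets had opposite signs for all 8 (Alb 1.12 in set 1 and -0.70 in set 2). By limma and by the ordinary linear model 0 members were called at each time, and so were 0% of all probe sets. An unadjusted p below 0.05 in limma was found for 2 of 7 member probe sets tested at 6 hr, 4 of 10 at 24 hr, 0 of 9 at 48 hr and 1 of 11 at 168 hr, where 5.58%, 7.22%, 15.1% and 4.01% of all probe sets had one. Of the other liver lists, 19 of 39 secreted and 17 of 44 liver cell genes were lower at 6 hr (medians 0.00 and 0.03, against 0.03 over all probe sets), 23 and 25 at 24 hr (-0.03 and -0.02), 27 and 30 at 48 hr (-0.10 and -0.08), when all 8 members were slightly higher, and 32 and 35 at 168 hr (-0.13 each).

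**Figure D4:**
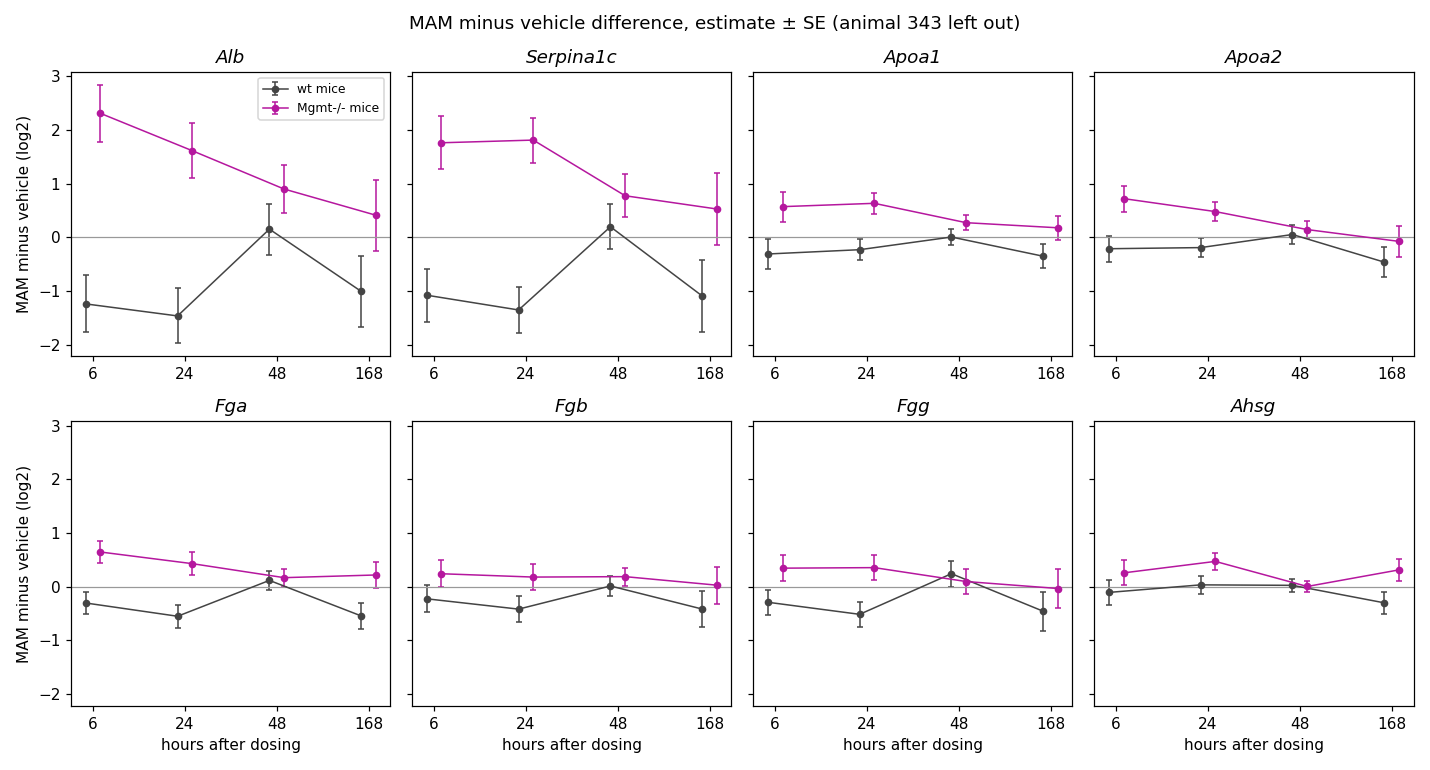
MAM minus vehicle difference (y axis, log2, estimate ± SE) at each time (x axis, hours, evenly spaced and not to scale) for each member in wt and Mgmt-/- mice, without MGMT.MAM.168.343. The estimates of Alb are 2.31 and -1.24 at 6 hr in Mgmt-/- and wt mice, and 0.41 and -1.01 at 168 hr.

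Between the vehicle groups at 6 and 24 hr, Serpina1c and Alb were lower in Mgmt-/- than in wt mice, and the other members less so or not at all. These vehicle groups of Mgmt-/- mice enter the MAM difference by which Alb and Serpina1c were chosen, so the values are given as a description, without a test. Serpina1c at 24 hr was 4.38, 4.69 and 5.0 (lowest, median, highest) in Mgmt-/- and 5.13, 6.22 and 7.28 in wt mice. The differences were -1.62 ± 0.50 at 6 hr and -1.46 ± 0.42 at 24 hr for Serpina1c, and -1.63 ± 0.53 and -1.49 ± 0.51 for Alb. The median over the 8 genes was -0.33 at 6 hr and -0.35 at 24 hr, with 7 of 8 below 0 at each time, and Ahsg was 0.04 and -0.02. Leaving out any 1 array kept the direction: Serpina1c was -1.89 to -1.4 at 6 hr and -1.67 to -1.25 at 24 hr. Over all probe sets tested, 3.57% at 6 hr and 4.21% at 24 hr passed the call rule in limma. The RNA index separated these groups, from 0.269 to 0.336 in wt and 0.417 to 0.460 in Mgmt-/- mice at 6 hr, and from 0.268 to 0.373 and 0.433 to 0.533 at 24 hr. The index was a covariate in an alternative fit only, and its part in the difference was not tested further.

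At 48 and 168 hr no member differed between the vehicle groups by the call rule. Alb was -0.77 ± 0.48 at 48 hr (limma adjusted p = 0.44) and -0.45 ± 0.63 at 168 hr (0.86), and Serpina1c was -0.39 and -0.49. Called shares of all probe sets were 3.01% and 0.0874%, with 0 members by limma and by the ordinary linear model. In limma 0 members had an unadjusted p below 0.05, where 17.3% and 10.1% of all probe sets had one. Without WT.VEH.168.123, the difference of Alb at 168 hr was 0.05.

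The difference between genotypes in the response to MAM was tested at 48 and 168 hr, the times that did not choose the members. For Alb it was 0.75 ± 0.66 at 48 hr (limma adjusted p = 0.58) and 1.42 ± 0.93 at 168 hr (0.81), and for Serpina1c 0.58 ± 0.58 (0.63) and 1.62 ± 0.94 (0.77). At 168 hr it was above 0 for all 8 genes (median 0.57), and at 48 hr for 6 of 8 (0.13). At both times 0 members were called by limma and by the ordinary linear model, where limma called 0.9% and 0.0718% of all probe sets. An unadjusted p below 0.05 in limma was found for 0 of 9 and 2 of 11 member probe sets, against 16.7% and 7.1% of all probe sets. As a description, the same difference was 3.55 for Alb and 2.84 for Serpina1c at 6 hr, and 3.08 and 3.17 at 24 hr.

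At 168 hr the members also differed between the number sets, a comparison chosen after seeing the data. Every member was lower in set 2 than in set 1, from -0.28 for Ahsg to -1.65 ± 0.47 for Alb (limma adjusted p = 0.029), and Serpina1c was -1.49 ± 0.47 (0.052). Fga (0.025), Apoa1 (0.034), Fgb (0.044) and Fgg (0.045) passed the call rule, and with Alb and the 2 further Apoa1 probe sets 7 of 11 were called, where 2.17% of all probe sets were. As the comparison was chosen after seeing the data, these limma p-values and this count describe it and are no test of it. The members also rise and fall together, so the probe sets called are not separate results. At 6, 24 and 48 hr 0 members were called by limma and by the ordinary linear model, where limma called 0.694%, 0.217% and 0.318% of all probe sets. In limma 0 members had an unadjusted p below 0.05 at these times, where 21.6%, 10.7% and 10.5% of all probe sets had one. The ordinary linear model called 0 members at 168 hr as well. The arrays of set 1 at 168 hr include WT.VEH.168.123, MGMT.VEH.168.321, MGMT.VEH.168.323 and MGMT.MAM.168.347, which are among the 9 highest of the 93 by the member median. Without WT.VEH.168.123 the count was 4, without MGMT.MAM.168.347, MGMT.VEH.168.323 or WT.MAM.168.145 it was 2, and without MGMT.VEH.168.321 it was 1.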

How the data were processed

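RNA of half-brains was hybridised to Affymetrix mouse genome arrays. The deposited values are log2 RMA values, made by the authors from the cell intensity files with the affy package at default arguments (background correction, quantile normalization, median polish). The package version, and whether 1 normalization covered the whole set, were not given in the sources used here. Quantile normalization makes values relative to the rest of each array. Precision is limited by how many arrays a group has. The labels and the paper name different RNA extraction methods. A probe set was named from the platform annotation (34958 probe sets with 1 symbol, 932 with several and 9211 with none).

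The members and gene lists were chosen with earlier results of these data known. For each time, genotype, agent, their interaction and number set were fitted with limma 3.58.1 in R 4.3.3. A laboratory filter, after the methods, removed a probe set if its number set interactions, tested jointly (F test), had p of 0.15 or less (17732, 21614, 35550 and 32025 left at 6, 24, 48 and 168 hr), and p-values were adjusted by Benjamini-Hochberg over all kept probe sets. The filter kept 7, 10, 9 and 11 of the 11 member probe sets, and values of the others come from the fit without it. A call needs an adjusted p below 0.05 and a fold change above 1.3. The scripts were tested on simulated data. P-values set each difference against the spread between animals, which limma moderates over all kept probe sets and the ordinary linear model does not. List medians come from the fit without the filter. Named genes are the 8 members, the 10 genes with the highest Spearman correlation with the member median, and, of the 2 liver lists, the 4 genes with the largest shares on WT.VEH.168.123 (few genes of the other lists have a defined share); named arrays are MGMT.MAM.168.343, the 5 with the highest member median and those that stand apart from their group in Alb.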

Additional observations from a re-analysis of the deposited data

Results flagged for a closer look

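In 27 of 128 sets of values (8 genes in 16 groups) the highest or lowest array lay far from the rest of its group by Dixon's test, which chance alone does in about 1 in 20 sets; sets of different genes share their arrays. Each such array was the highest of its group. MGMT.MAM.168.343 was so placed for 7 genes (all but Alb): Serpina1c 13.81, Apoa1 14.32, Apoa2 13.75, Fga 13.67, Fgb 13.57, Fgg 13.52 and Ahsg 13.92. The genes were chosen because they are very high on this array, so these 7 follow from the choice and are no result. The remaining 20 of the 27 were on other arrays.

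WT.VEH.168.123 (wt vehicle, 168 hr) was so placed for 7 genes: Serpina1c 9.03, Apoa1 7.24, Apoa2 7.65, Fga 6.19, Fgb 6.70, Fgg 7.01 and Ahsg 6.24. WT.MAM.6.127 (wt MAM, 6 hr) was so placed for 6: Alb 8.54, Serpina1c 7.02, Apoa1 6.52, Apoa2 6.80, Fgb 5.16 and Ahsg 5.81. WT.MAM.168.145 (wt MAM, 168 hr) was so placed for Alb 8.06, Fga 4.18 and Fgb 4.62. Placed so for 1 gene each were MGMT.MAM.48.337 (Mgmt-/- MAM, 48 hr, Serpina1c 6.83), WT.VEH.24.107 (wt vehicle, 24 hr, Fga 5.86), WT.MAM.48.139 (wt MAM, 48 hr, Fgg 5.81) and WT.VEH.6.105 (wt vehicle, 6 hr, Ahsg 5.45).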

How the results depend on the processing

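No paired analysis was possible because each animal number occurs in 1 group only. The counts of members called in wt mice after MAM, in Mgmt-/- mice after MAM at 48 and 168 hr, between vehicle groups at 48 and 168 hr and in the interaction at 48 and 168 hr were 0 under every alternative run, leaving out each array included (0 to 0). Between vehicle groups at 6 and at 24 hr, 1 member passed the call rule in limma, Serpina1c each time. The Mgmt-/- vehicle groups enter the MAM difference that chose Alb and Serpina1c, so these counts are a description and no test. At 6 hr the count of 1 became 0 without the laboratory filter and with the ordinary linear model. It was also 0 with the RNA index as covariate and in either number set alone. It was 4 with array weights, 2 for brighter probe sets and 0 to 2 leaving out single arrays. At 24 hr the count of 1 became 0 with the ordinary linear model and in either number set alone, and was 0 to 3 leaving out single arrays. Between number sets at 168 hr the count of 7 became 0 with the ordinary linear model, 3 for brighter probe sets and 0 with MGMT.MAM.168.343 kept, and was 1 to 9 leaving out single arrays. The cause was not tested.

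The sign turned for Alb in wt mice at 48 hr with array weights (-0.03) and in number set 2 alone (-0.70), for Serpina1c there in set 2 alone (-0.33), and with single arrays left out in values near 0 (Alb in wt at 48 hr -0.29 to 0.45, Alb in Mgmt-/- after MAM at 168 hr -0.05 to 0.88, Alb between vehicle groups at 168 hr -0.79 to 0.05, Serpina1c in wt at 48 hr -0.19 to 0.44). Between number sets such ranges were -0.03 to 0.39 (6 hr), -0.28 to 0.08 (24 hr) and -0.21 to 0.18 (48 hr) for Alb and -0.30 to 0.06 (6 hr) for Serpina1c. The median ratio of the Alb to the Apoa1 share was 14.05 with the median of the 93 arrays as base, 14.16 with the Apoa1 probe set highest on the reference, and 0.51 with WT.VEH.168.123 as reference, where that of Alb to Serpina1c was 0.85. Of the 10 genes most like the members, 8 were shared with Pearson correlation, 9 with deviations from group and number set, and 10 without WT.VEH.168.123.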
